A study of Mus musculus with 8 samples.

Results

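The levels of 10 genes of the vessel wall were followed in mouse skin. They were the inducible adhesion molecules Sele, Selp, Icam1 and Vcam1 and the endothelial markers Pecam1, Cdh5, Kdr, Vwf, Tek and Lyve1. The genes were chosen by name from the 22740 protein-coding genes with deposited counts, and all 10 were found and passed the filter on low counts.

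Leukocytes leave the blood in steps. The selectins of the endothelium (Sele, E-selectin, and Selp, P-selectin) bind sugars on passing cells and let them roll, and the immunoglobulin family members Icam1 and Vcam1 then hold the activated integrins of those cells. In skin, cytokines such as TNF, IL-1, IL-4 and IL-13 are known to induce several of these molecules in the small venules of the dermis, whereas Pecam1, Cdh5, Kdr, Vwf and Tek mark blood vessel endothelium whether it is inflamed or not, and Lyve1 marks lymphatic endothelium and some resident macrophages.

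RNA of whole skin was sequenced in 8 female BALB/c mice of 6 to 8 weeks, from 4 groups of 2, each mouse giving its own library. Baseline CTL mice (replicates 1 and 2) drank vehicle, baseline butyrate mice (replicates 1 and 3) drank 400 mM sodium butyrate, a short-chain fatty acid, and neither group met allergen. Lesional CTL mice (replicates 4 and 5) and lesional butyrate mice (replicates 3 and 4) had the same drinking water from 2 weeks before, and then house dust mite (HDM) extract on shaved back skin, 4 applications of 15 µg over 2 weeks, which gives an atopic dermatitis-like inflammation. All mice ate a low-fibre diet. Baseline and lesional mice carry different leading numbers in their labels, so HDM exposure and any other difference between these sets of mice cannot be told apart. The middle number likewise differs between CTL and butyrate mice, so the same limit holds for butyrate. Nothing in the labels says whether the mice of a group came from separate cages or litters, so the tests measure the spread between these mice.

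Library totals were 18004136 to 21085544 counts, and levels are given as CPM, the count of a gene relative to the TMM-scaled size of its library. Counts were compared by edgeR's quasi-likelihood test over all 8 mice, and a gene was called at a Benjamini-Hochberg FDR below 0.1 with a fold above 2. The library of baseline butyrate replicate 3 stood apart from the others. Its log2 levels correlated at 0.748 to 0.806 with those of the other 7 libraries, which correlated at 0.911 to 0.992 among themselves, and 27.0% of 14317 genes lay more than 2-fold from the other mouse of its group, against 1.72% to 4.90% in the other pairs. The sum of 8 skeletal muscle genes was 9623 CPM there and 42057 CPM in replicate 1, that of 21 endothelial genes other than the 10 was 261 and 513 CPM, and the gap junction gene Gja1 was at 2731 CPM against 213 CPM. Calls and fold changes of the members that moved without this library are given both ways, and the ratios to other endothelial genes and the genes nearest in pattern are given over all 8 mice. Keratinocyte, muscle, fibroblast and endothelial markers were present in every library, as whole skin would hold. In such tissue, fewer endothelial cells and less RNA per endothelial cell cannot be told apart.

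Both selectins rose under HDM in CTL mice. Sele and Selp were the 2 of the 10 genes called higher in lesional than in baseline CTL skin, where 2.37% of all 15163 tested genes were called higher, and 0 of the 10 were called lower, against 1.21% of all genes. The groups did not overlap in 8 of the 10 genes, all higher in lesional skin, while 36.7% of all genes lay apart in that direction and 38.5% in the other. Kdr and Lyve1 were the genes whose groups overlapped.

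Sele binds sialylated ligands on neutrophils and skin-homing T cells. It was at 3.00 and 4.55 CPM in the baseline CTL mice, 5.35 and 1.78 CPM in the baseline butyrate mice, 31.5 and 23.7 CPM in lesional CTL, and 9.88 and 9.58 in lesional butyrate skin. Both lesional groups lay above all baseline mice, and the lesional butyrate pair lay between the baseline mice and the lesional CTL pair with no overlap. The rise in CTL mice was 7.30-fold (log2 fold change 2.87, standard error 0.52, 95% interval 1.61 to 4.13, FDR 0.0586).

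Selp, which is stored in granules of endothelial cells and platelets and binds the leukocyte ligand PSGL-1, was at 5.33 and 6.55 CPM in baseline CTL, 5.97 and 2.81 CPM in baseline butyrate, 39.5 and 36.3 CPM in lesional CTL, and 13.4 and 14.0 in lesional butyrate skin. The order of the 4 groups was that of Sele, and the mice within each lesional pair were close. Selp rose 6.37-fold in CTL mice (log2 fold change 2.67, standard error 0.35, 95% interval 1.82 to 3.52, FDR 0.0354).

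Icam1, the ligand of the leukocyte integrins LFA-1 and Mac-1, is also made by keratinocytes and immune cells under inflammation. Its levels were 33.8 and 32.7 CPM in baseline CTL, 29.9 and 19.2 CPM in baseline butyrate, 57.8 and 59.8 CPM in lesional CTL, and 41.0 and 42.2 in lesional butyrate skin. The groups again fell in the order of the selectins, over a smaller range. The lesional CTL mice were at 1.77 times the baseline CTL level (log2 fold change 0.82, standard error 0.21), which was not called (FDR 0.116).

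Vcam1, the ligand of the integrin VLA-4 on lymphocytes, monocytes and eosinophils, was the lowest of the 4 adhesion genes per kilobase of exon. It was at 5.39 and 6.88 CPM in baseline CTL, 8.79 and 3.65 CPM in baseline butyrate, 10.5 and 10.4 CPM in lesional CTL, and 3.91 and 8.46 in lesional butyrate skin. The lesional CTL mice were the highest, and each butyrate group held mice that lay more than 2-fold apart. The log2 fold change of HDM in CTL mice was 0.77 (standard error 0.51, FDR 0.425).

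**Figure D1:**
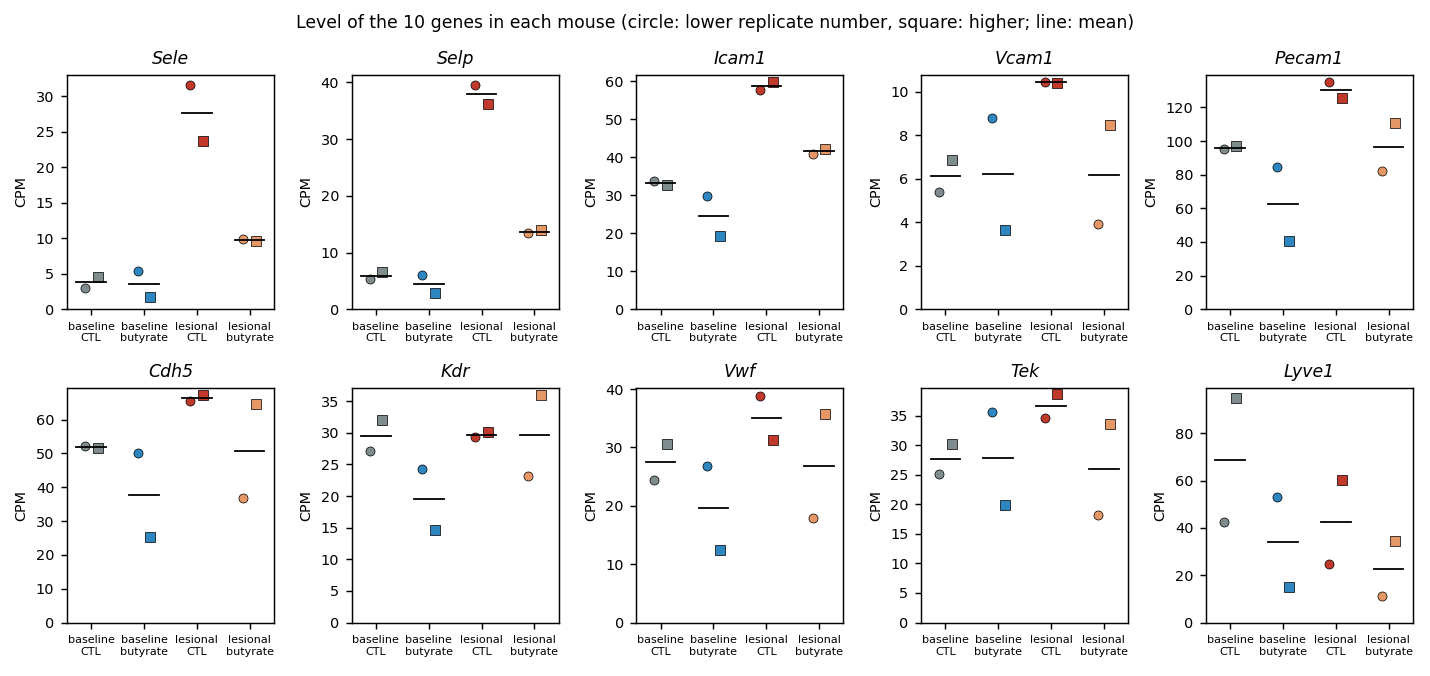
Level of each of the 10 genes in CPM (vertical axis, from 0) in each mouse, by group (horizontal axis), with a line at the mean of each pair. Sele and Selp lie at 23.7 to 39.5 CPM in the lesional CTL mice and at 9.58 to 14.0 CPM in the lesional butyrate mice, while the markers of vessels overlap more between groups.

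The edgeR calls of the selectins depended on which mice were in the fit. With only the 4 CTL mice in the fit, edgeR called 2 members among 1918 genes. Over all 8 mice, limma-voom called 2 members among 578 genes and DESeq2 called 2 among 1093. With 1 of the baseline CTL, lesional CTL or lesional butyrate mice left out, edgeR called neither Sele (FDR 0.150 to 0.481) nor Selp (FDR 0.107 to 0.371), while their log2 fold changes stayed between 2.60 and 3.20 for Sele and between 2.53 and 2.83 for Selp. With baseline butyrate replicate 3 left out, both stayed called, with an FDR of 0.00204 for Sele and 0.000813 for Selp, in a fit where 6.33% of all genes were called higher and 6.12% lower. In that fit Icam1 had an FDR of 0.0032, with a fold below 2.

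In lesional skin, butyrate-treated mice had lower levels of both selectins than CTL mice, by 2.84-fold for Sele and 2.77-fold for Selp, but whether these differences were called depended on which baseline mice shared the fit. With all 8 mice, edgeR called 0 of the 10 genes and 0 of all 15163 genes, 0% in either direction. At an unadjusted p below 0.05 by edgeR there were 734 of the 15163 tested genes, a share below that cutoff. Among them were Sele (log2 fold change -1.50, standard error 0.49, FDR 0.914), Selp (-1.47, standard error 0.33, FDR 0.737) and Icam1 (-0.50, standard error 0.21, FDR 0.9999). limma-voom called 0 of the 10 and 1 gene in all. DESeq2 called Selp (FDR 0.0102), with 0.666% of all genes called lower. The intervals of the log2 difference were -2.69 to -0.32 for Sele and -2.28 to -0.66 for Selp.

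Without baseline butyrate replicate 3, a mouse that is in neither lesional group, the fold changes of the lesional comparison stayed as they were and the standard errors dropped to 0.22 for Sele and 0.14 for Selp. Sele (FDR 0.0627) and Selp (FDR 0.0281) were then called lower, in a fit where 0.886% of 15349 genes were called lower and 0.332% higher. Icam1 had an FDR of 0.0805 there but a fold of less than 2. limma-voom and DESeq2 called Sele and Selp without that mouse too, with 1.07% and 1.68% of all genes called lower. So did edgeR without baseline butyrate replicate 1 (0.874% of all genes called lower) and without both baseline butyrate mice (0.911%). The call rested on both lesional CTL mice, since leaving out lesional CTL replicate 4 besides gave an FDR of 0.337 for Sele and 0.218 for Selp, and leaving out lesional CTL replicate 5 besides gave 0.191 and 0.150.

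**Figure D2:**
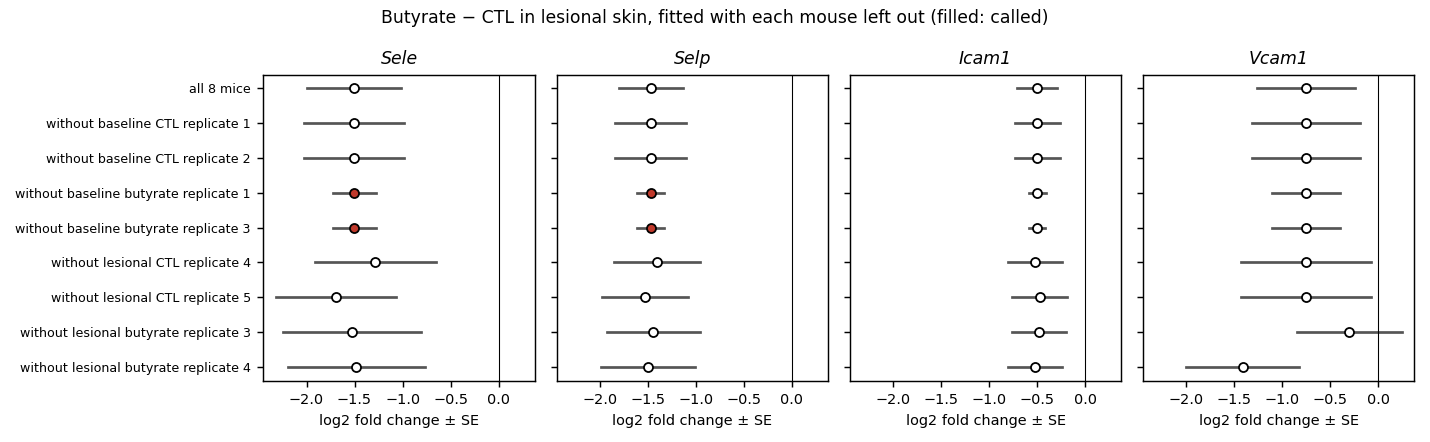
Fitted log2 fold change of butyrate against CTL in lesional skin (horizontal axis) with its standard error, for the 4 adhesion genes, with all 8 mice and with each mouse left out (vertical axis); filled points were called. Sele stays between -1.69 and -1.28 and Selp between -1.53 and -1.41, and both are called in the fits without 1 of the baseline butyrate mice, while Vcam1 moves from -1.41 without lesional butyrate replicate 4 to -0.30 without lesional butyrate replicate 3.

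The groups of 7 of the 10 genes stood apart when the lesional pairs were compared, all 7 lower with butyrate, where 22.5% of all genes lay apart in that direction and 22.4% in the other. These were the 4 adhesion genes, Pecam1, Cdh5 and Tek. The median log2 fold change was -1.11 over the 4 adhesion genes and -0.41 over the 6 vessel markers, while that over all tested genes was -0.0053. The smallest p that exact permutation of 2 and 2 mice allows for 1 gene is 0.333.

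None of the 6 vessel markers was called under HDM. Pecam1 (CD31), a junction molecule through which leukocytes pass, was at 95.1 and 97.1 CPM in baseline CTL, 84.3 and 40.8 CPM in baseline butyrate, 135 and 125 CPM in lesional CTL, and 82.0 and 111 in lesional butyrate skin. Its log2 fold change under HDM in CTL mice was 0.44 (standard error 0.33, FDR 0.477). Both lesional CTL mice were above the other 6 mice, though the difference was within the spread of the fit.

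Cdh5, the VE-cadherin of endothelial junctions, was at 52.2 and 51.7 CPM in baseline CTL, 50.1 and 25.4 CPM in baseline butyrate, 65.6 and 67.3 CPM in lesional CTL, and 36.7 and 64.7 in lesional butyrate skin. The CTL pairs were tight, and each butyrate pair held 1 mouse near the CTL level and 1 well under it.

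Kdr, the main receptor for VEGF-A, stood at 27.1 and 32.0 CPM in baseline CTL, 24.2 and 14.7 CPM in baseline butyrate, 29.4 and 30.1 CPM in lesional CTL, and 23.2 and 36.0 in lesional butyrate skin. Of the 10 genes, Kdr had the smallest differences in CTL mice under HDM (log2 fold change 0.0074, 95% interval -0.72 to 0.73) and with butyrate in lesional skin (-0.0036, 95% interval -0.73 to 0.72). These intervals reach up to a 1.66-fold change, and the sign of both values turned when single mice were left out.

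Vwf, the clotting glycoprotein of endothelial granules, was at 24.4 and 30.6 CPM in baseline CTL, 26.8 and 12.4 CPM in baseline butyrate, 38.9 and 31.2 CPM in lesional CTL, and 17.99 and 35.8 in lesional butyrate skin. Tek, the angiopoietin receptor Tie2, was at 25.1 and 30.1 CPM in baseline CTL, 35.6 and 19.9 CPM in baseline butyrate, 34.5 and 38.7 CPM in lesional CTL, and 18.2 and 33.6 in lesional butyrate skin. For both genes the spread within the butyrate pairs was wider than the distance between the CTL groups.

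Lyve1, a receptor for hyaluronan, varied most within groups. It was at 42.6 and 94.995 CPM in baseline CTL, 53.0 and 15.0 CPM in baseline butyrate, 24.7 and 60.4 CPM in lesional CTL, and 11.02 and 34.4 in lesional butyrate skin. The mice of each pair lay 2.23- to 3.54-fold apart, and no comparison separated the groups. The log2 fold change of HDM in CTL mice was -0.69 (standard error 0.83), a gene for which these mice could show only a large change.

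In butyrate-treated mice, the log2 fold changes of lesional against baseline skin were smaller in value than in CTL mice for Sele, Selp, Icam1 and Vcam1, and those of Pecam1 (0.62), Cdh5 (0.42), Kdr (0.60) and Vwf (0.45) were larger than in CTL mice, with no difference called. Without baseline butyrate replicate 3, those of Pecam1 (0.19), Cdh5 (0.020) and Vwf (0.0077) were smaller than in CTL mice (0.44, 0.36 and 0.35). That of Kdr (0.29) stayed larger than in CTL mice (0.0082). By edgeR over 8 mice, 0 of the 10 genes were called between lesional and baseline butyrate skin, where 0.277% of all genes were called higher and 0.0725% lower. Of all 15163 tested genes, 1993 had an unadjusted p below 0.05 by edgeR. Sele (log2 fold change 1.45, standard error 0.50, FDR 0.317), Selp (1.64, standard error 0.34, FDR 0.191) and Icam1 (0.75, standard error 0.21, FDR 0.266) were the members whose groups did not overlap, all higher in lesional skin, against 16.4% of all genes higher and 16% lower. DESeq2 called Sele and Selp among 698 genes, with 2.55% of all genes called higher, and limma-voom called 0 of the 10 and 42 genes in all.

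These values depended on baseline butyrate replicate 3. Without it the log2 fold change was 0.86 for Sele (FDR 0.130), 1.20 for Selp (FDR 0.0371, called) and 0.48 for Icam1 (FDR 0.0655, fold below 2), in a fit that called 2.5% of all genes higher and 3.44% lower. Without baseline butyrate replicate 1 instead, the values were 2.43 for Sele, 2.26 for Selp and 1.09 for Icam1, and these genes and Pecam1 (1.22) were called, in a fit that called 11.1% of all genes higher.

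The effect of HDM was not shown to differ between butyrate-treated and CTL mice. The difference of the 2 effects was -1.42 for Sele on the log2 scale (standard error 0.70, FDR 0.840) and -1.04 for Selp (standard error 0.48, FDR 0.840). edgeR called 0 of the 10 genes and 0% of all genes in either direction. It had 703 of 15163 tested genes at an unadjusted p below 0.05, a share below that cutoff. limma-voom called 0 genes and DESeq2 called 37, none of them a member. Neither member had an unadjusted p below 0.05. Without baseline butyrate replicate 3 the differences were -2.01 for Sele (FDR 0.386) and -1.48 for Selp (FDR 0.344) by edgeR, and DESeq2 called both, with 0.782% of all genes called in that direction.

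In baseline skin, butyrate-treated and CTL mice did not differ detectably in any of the 10 genes. edgeR called 0 members and 0% of all genes in either direction. It had 529 of 15163 tested genes, none of them a member, at an unadjusted p below 0.05, a share below that cutoff. limma-voom called 0 genes and DESeq2 called 58 genes, none of them a member. The groups of Icam1, Pecam1, Cdh5 and Kdr did not overlap, with both butyrate-treated mice lower, while 16.4% of all genes lay apart in that direction and 13.4% in the other. These pairs were 1 mouse near the CTL level and replicate 3 far under it. Without replicate 3 the log2 difference was 0.50 for Sele, 0.0079 for Selp and -0.15 for Icam1, and those of Pecam1, Cdh5 and Kdr were -0.19, -0.05 and -0.29. Without replicate 1 it was -1.06, -1.06 and -0.77 for the first 3 genes. In that fit 5 members (Sele, Selp, Pecam1, Cdh5 and Vwf) were called lower, and so were 14.7% of all 15677 tested genes, with the library that stands apart as the lone baseline butyrate mouse.

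**Figure D3:**
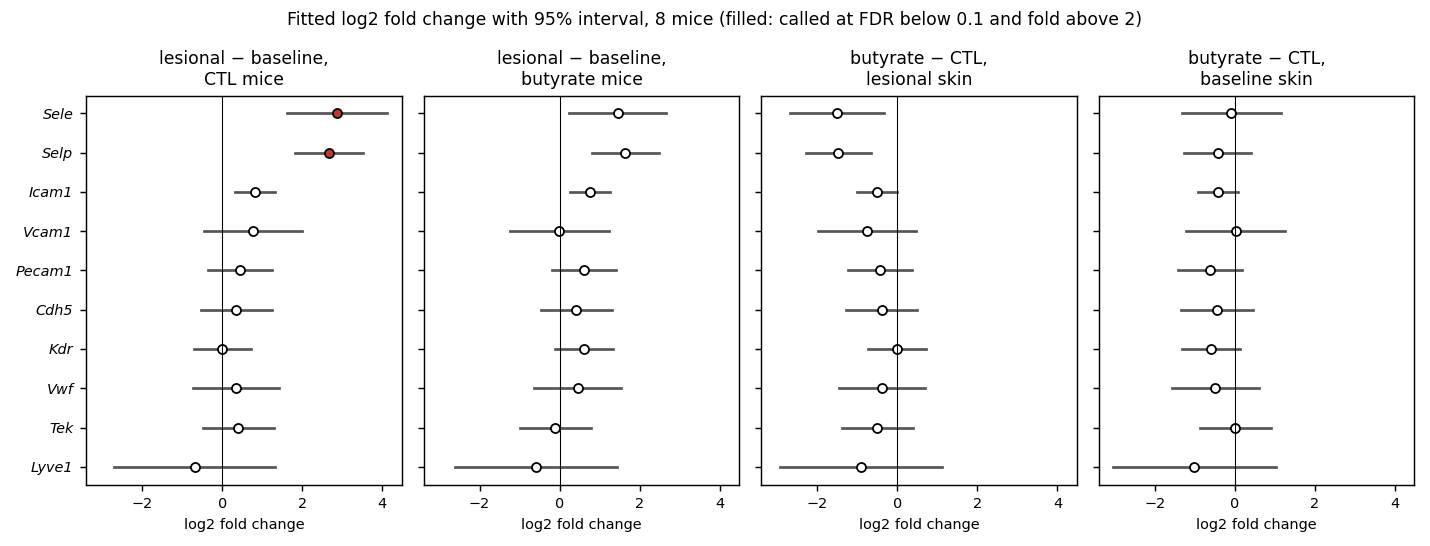
Fitted log2 fold change of the 10 genes (vertical axis) with 95% intervals in 4 comparisons over all 8 mice; filled points were called at an FDR below 0.1 with a fold above 2. Sele (2.87) and Selp (2.67) under HDM in CTL mice are the called values, and the intervals of both lie under 0 for butyrate against CTL in lesional skin.

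To set the adhesion genes beside the amount of endothelium in each sample, their levels were divided by the geometric mean of 21 other endothelial genes in the same library. On this log2 ratio Sele was at -2.64 and -2.24 in baseline CTL, -1.87 and -2.43 in baseline butyrate, 0.26 and -0.05 in lesional CTL, and -0.93 and -1.34 in lesional butyrate skin. Selp was at -1.82 and -1.72, then -1.71 and -1.78, then 0.58 and 0.57, then -0.49 and -0.80 in the same order of groups. The 4 baseline mice lay between -1.82 and -1.71 for Selp, baseline butyrate replicate 3 included, and both lesional pairs stood apart from them and from each other.

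The difference of this ratio between lesional butyrate and lesional CTL skin was -1.24 for Sele, -1.22 for Selp, -0.25 for Icam1 and -0.61 for Vcam1, with no overlap of the groups in any of the 4. With Pecam1, Cdh5, Kdr and Tek as the endothelial genes in place of the 21, it was -1.11, -1.09, -0.13 and -0.48, and the groups of Icam1 overlapped. Against the 21 genes, the difference under HDM in CTL mice was 2.55 for Sele, 2.34 for Selp, 0.49 for Icam1 and 0.45 for Vcam1, again with no overlap. In butyrate-treated mice it was 1.01 for Sele and 1.10 for Selp, the groups of Icam1 overlapped, and Vcam1 was at -0.61, with both lesional mice below both baseline mice. The 21 genes summed to 485 to 578 CPM in baseline CTL, 261 to 513 CPM in baseline butyrate, 686 to 743 CPM in lesional CTL, and 514 to 695 in lesional butyrate skin, and 0 of them were called in any of the 5 comparisons by edgeR. The share of all genes whose groups lay apart on this ratio was not computed. On CPM, 22.5% of all genes lay apart lower with butyrate in lesional skin, and 36.7% higher under HDM in CTL mice. For Icam1 the nearest lesional mice were at 1.12 (butyrate) and 1.13 (CTL) on the ratio to the 21 genes. The ratios are a description and were not tested.

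**Figure D4:**
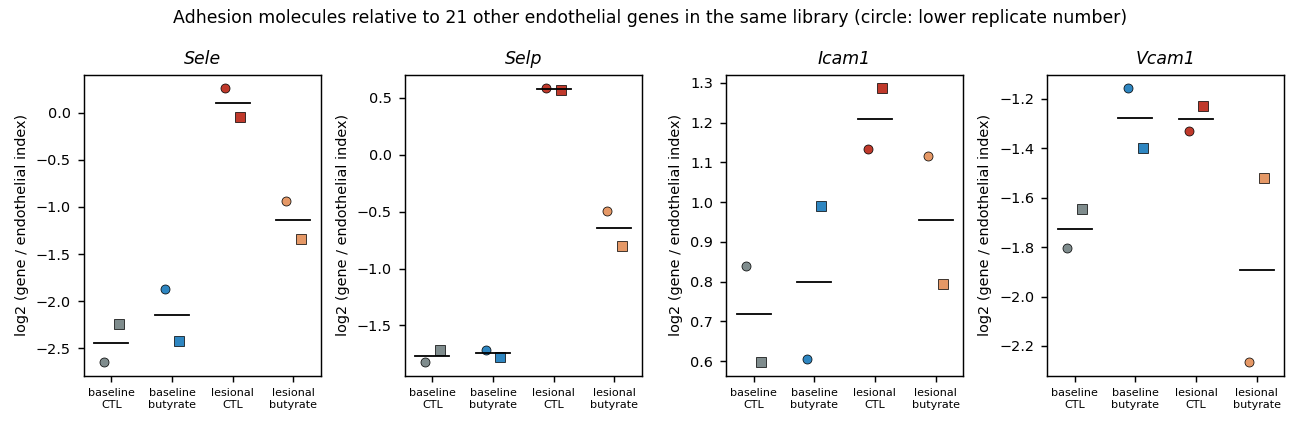
Log2 ratio of each adhesion gene to the geometric mean of 21 other endothelial genes (vertical axes, scales differ) in each mouse by group, with a line at the mean. Selp lies at 0.57 to 0.58 in lesional CTL, -0.80 to -0.49 in lesional butyrate and -1.82 to -1.71 in the 4 baseline mice.

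The lesional butyrate mice agreed in 3 adhesion genes and differed in the other members. Replicates 3 and 4 lay within 1.04-fold for Sele, Selp and Icam1. Replicate 4 was higher by 2.16-fold for Vcam1, 1.35-fold for Pecam1, 1.76-fold for Cdh5, 1.55-fold for Kdr, 1.99-fold for Vwf, 1.84-fold for Tek and 3.12-fold for Lyve1. In the same mouse 7 fibroblast markers summed to 2.52 times, 10 macrophage markers to 1.92 times and 8 skeletal muscle markers to 1.84 times the sum in replicate 3. The 11 mural cell markers were at 1.58 times, platelet markers at 1.56 times, the 21 other endothelial genes at 1.35 times and lymphatic markers at 1.09 times. Keratinocyte markers were 1.10-fold and adipocyte markers 1.01-fold higher in replicate 3. The neutrophil markers were uneven. S100a8 and S100a9, which keratinocytes also make, summed to 710 CPM in replicate 3 and 271 CPM in replicate 4, and the other 8 markers of that list to 108 and 112 CPM, a split made after seeing the values. Of these 8, Csf3r was lower in replicate 3 (24.2 against 46.8 CPM) and Cxcr2 higher (35.7 against 26.4 CPM). The part of tissue makeup in the members' values was not tested.

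Vcam1, Tek and Cdh5 in lesional skin rested on this pair. Without lesional butyrate replicate 4 the log2 difference between butyrate and CTL was -1.41 for Vcam1, -1.004 for Tek and -0.85 for Cdh5, and without lesional butyrate replicate 3 it was -0.30, -0.12 and -0.04. No such dependence was seen for Selp, whose values lay between -1.53 and -1.41 when each of the 8 mice was left out in turn.

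Across the 8 libraries the members differed in how closely they followed each other. The Pearson correlation of log2 CPM was 0.99 between Sele and Selp, 0.947 between Sele and Icam1 and 0.969 between Selp and Icam1. Pecam1, Cdh5, Kdr and Vwf were at 0.908 to 0.969 with each other. Pecam1 was as close to Icam1 (0.912) as to Kdr (0.908), and at 0.806 and 0.816 with Sele and Selp, so these sets were not separate. Vcam1 was closer to Tek (0.978) and Vwf (0.905) than to the selectins (0.674 and 0.702), and Lyve1 was at 0.041 with Sele and 0.729 with Tek. The points share the 4 groups and 1 library that stands apart, so the coefficients are a description over 8 points and carry no test. Over the 7 libraries without baseline butyrate replicate 3, a choice made after seeing the data, Sele, Selp and Icam1 were at 0.938 to 0.985 with each other, Pecam1, Cdh5, Kdr and Vwf at 0.633 to 0.919, and Pecam1 and Icam1 at 0.833. Vcam1 and Tek were at 0.974, and Lyve1 was at -0.315 with Sele.

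**Figure D5:**
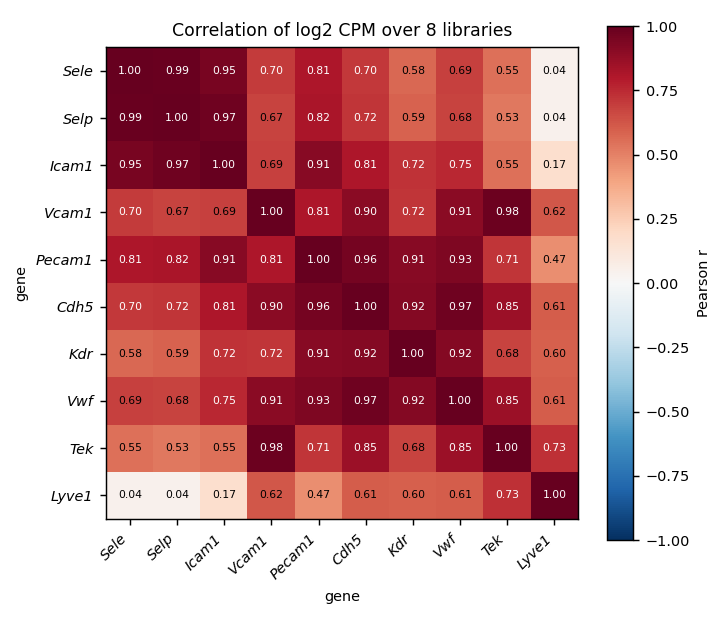
Pearson correlation of log2 CPM between each pair of the 10 genes (both axes) over the 8 libraries, on a colour scale from -1 to 1. Sele, Selp and Icam1 lie at 0.947 to 0.99 with each other, Pecam1, Cdh5, Kdr and Vwf at 0.908 to 0.969, Pecam1 and Icam1 at 0.912, and Lyve1 is low with all 3 of the former (0.041 to 0.169).

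Of 14186 other genes at 1 CPM or more, those most like Sele in pattern over the 8 libraries were Gpr132 (0.995) and Kcnn4 (0.991). For Selp they were Il1rl1, the receptor of IL-33 (0.997), and Tmem173, the innate sensor STING (0.993). For Icam1 they were Csf2rb, the shared chain of the GM-CSF, IL-3 and IL-5 receptors (0.995), and Sec24d (0.993), and for Vcam1 they were the lysosomal enzymes Lgmn (0.989) and Sgsh (0.987). The vessel markers had Aff2 (0.989) and Exoc3l2 (0.983) beside Pecam1, Dab2 (0.983) and Lhx6 (0.98) beside Cdh5, 9430020K01Rik (0.975) and Cenpb (0.968) beside Kdr, and Lhx6 (0.976) and Fkbp10 (0.976) beside Vwf. The collagen gene Col5a2 (0.994) and Lepre1 (0.981) were closest to Tek, and Exoc7 (0.991) and Adamtsl1 (0.985) to Lyve1. Without baseline butyrate replicate 3, 6 of these 20 pairings were still among the 2 closest of their member (Gpr132, Sec24d, Lgmn, Sgsh, Col5a2 and Exoc7), so the order of the nearest genes rested partly on that library. Il1rl1 had a mean of 7.13 CPM in baseline CTL, 6.18 CPM in baseline butyrate, 56.3 CPM in lesional CTL and 20.4 in lesional butyrate skin.

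Levels were compared between genes per kilobase of exon. In baseline CTL skin the order was Lyve1 (23.6 CPM per kb), Pecam1 (15.4), Cdh5 (12.4), Icam1 (7.63), Tek (5.86), Kdr (3.27), Vwf (1.71), Selp (1.35), Sele (1.30) and Vcam1 (0.69). The ranges of the mice overlapped between Lyve1 and Pecam1 and between Selp and Sele, and the other neighbours did not overlap. In lesional CTL skin Pecam1 (20.9 CPM per kb) and Cdh5 (15.8) led, Sele (9.48) and Selp (8.59) stood above Kdr (3.29) and Vwf (2.18), and Vcam1 (1.18) was again the lowest. Tek (7.77) had a range of 7.33 to 8.21 that overlapped that of Sele (8.13 to 10.8). Lyve1 (8.46 to 20.7) there spanned the ranges of Cdh5 and Icam1 and overlapped those of Pecam1 and both selectins.

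On GRCm38 both selectin members lie on chromosome 1, on the plus strand. Sele (ENSMUSG00000026582) is at chr1:164048234-164057677 and Selp (ENSMUSG00000026580) at chr1:164115264-164150026, with 57.6 kb between them. Icam1 (ENSMUSG00000037405) is at chr9:21015985-21028817 on the plus strand and Vcam1 (ENSMUSG00000027962) at chr3:116109949-116129688 on the minus strand. All 10 members are annotated as protein-coding.

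Because Sele, Selp and Icam1 had the closest patterns among the adhesion genes, the 250 bases before the RefSeq start of each (GRCm38.p6, plus strand) are shown, with capitals for the matches to the AP-1 and 9-letter NF-kappaB motifs described next. Sele is read from chr1:164047984-164048233, Selp from chr1:164115014-164115263 and Icam1 from chr9:21015690-21015939.
Sele: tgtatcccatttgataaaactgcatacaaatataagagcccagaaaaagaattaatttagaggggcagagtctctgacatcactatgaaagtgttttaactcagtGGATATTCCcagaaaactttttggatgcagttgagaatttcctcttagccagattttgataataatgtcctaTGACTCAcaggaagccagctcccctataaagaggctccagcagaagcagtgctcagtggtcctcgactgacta
Selp: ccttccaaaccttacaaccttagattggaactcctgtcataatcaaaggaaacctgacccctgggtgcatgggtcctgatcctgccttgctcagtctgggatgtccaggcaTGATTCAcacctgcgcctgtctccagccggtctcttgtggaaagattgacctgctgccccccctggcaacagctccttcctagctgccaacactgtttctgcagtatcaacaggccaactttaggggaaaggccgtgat
Icam1: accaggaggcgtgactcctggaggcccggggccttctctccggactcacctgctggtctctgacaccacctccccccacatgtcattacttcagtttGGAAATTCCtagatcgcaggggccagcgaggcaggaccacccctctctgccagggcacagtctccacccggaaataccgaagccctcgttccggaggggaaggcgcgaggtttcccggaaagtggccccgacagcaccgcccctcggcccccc

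Motifs were searched on both strands in these windows and in those of Kdr and Tek, the other members with a window in the table. The AP-1 motif TGANTCA, which reads the same on both strands, was at bases -73 to -67 of Sele and -139 to -133 of Selp, counted from the start, and in 6.75% of 32851 promoter windows of the same length. A 9-letter form of the NF-kappaB motif, GGANNTTCC, was at -145 to -137 of Sele and -153 to -145 of Icam1 and in 3.59% of all windows. This form was added after the windows had been seen. The longer NF-kappaB consensus matched only Kdr among these windows (7.25% of all windows), the ETS motif CCGGAA matched Icam1 at 3 places and Kdr at 1 (12.03% of all windows), and the GATA motif AGATAA matched none of the 5 (9.99% of all windows). A match of letters is a description and not a measured binding site.

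The partners of the adhesion genes on leukocytes were followed as a list of 13 ligands and integrins. Under HDM in CTL mice edgeR called 3 of the 13 higher and 0 lower, with a median log2 fold change of 0.74 over the 13 and -0.015 over all tested genes. Among the called genes were Itgal, the LFA-1 chain that binds Icam1 (log2 fold change 2.38, standard error 0.44) and Cd44, a ligand of E-selectin that keratinocytes also make (1.25, standard error 0.24). Itgal was at 5.22 and 4.88 CPM in baseline CTL, 6.59 and 2.52 CPM in baseline butyrate, 30.8 and 21.9 CPM in lesional CTL, and 13.4 and 14.3 in lesional butyrate skin. The lesional butyrate mice lay between the baseline mice and the lesional CTL mice. In lesional skin all 13 were lower with butyrate in direction, with a median of -0.43 and 0 called.

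The cytokines and receptors known to induce these adhesion molecules formed a list of 12, of which 11 were tested. Under HDM in CTL mice 5 were called higher and 0 lower, with a median log2 fold change of 1.35. By the smallest p these were Il1b (5.23, standard error 0.61), its receptor Il1r1 (1.11, standard error 0.16), Tnf (1.66, standard error 0.26) and Il4ra, the receptor chain for IL-4 and IL-13 (1.94, standard error 0.32). The other was Il13, at 0.11 and 0.00 CPM in baseline CTL and 3.63 and 1.61 CPM in lesional CTL skin.

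With butyrate in lesional skin 9 of the 11 inducers were lower in direction and 0 were called, with a median of -0.33. Il1b was at 132 and 136 CPM in lesional CTL and 19.9 and 25.5 in lesional butyrate skin (log2 difference -2.56, FDR 0.737). Tnf was at 7.58 and 6.69 CPM and at 5.49 and 5.86 CPM in these groups (log2 difference -0.33). Il13 was at 3.63 and 1.61 CPM and at 2.39 and 1.86 CPM, with overlap. In the same groups Il1r1 was at 141 and 156 CPM and at 88.0 and 81.7 CPM (log2 difference -0.81, FDR 0.737). Il4ra was at 272 and 262 CPM and at 104 and 91.1 CPM (log2 difference -1.45, FDR 0.737).

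Other lists of the vessel and its signals held no called gene under HDM in CTL mice by edgeR. Of 9 tested genes of transmigration and further endothelial adhesion, the smallest p were those of Cd99l2 (log2 fold change -0.63, FDR 0.177) and Fut7, which makes selectin ligands (1.03, FDR 0.326), and the median was 0.092. Of the 10 NF-kappaB subunits and inhibitors, Nfkb2 (0.68, FDR 0.126) and Nfkb1 (0.54, FDR 0.183) had the smallest p, with a median of 0.43. Of the 14 tested ligands and receptors related to Kdr and Tek, these were Angpt2, the antagonist of Tek that endothelium releases (0.90, FDR 0.132), and Vegfb (-0.85, FDR 0.267), with a median of 0.20. In lesional skin with butyrate these lists had medians of 0.0033, -0.17 and -0.17, with 0 genes called. The median of the 21 endothelial genes other than the members was 0.24 under HDM in CTL mice and -0.20 with butyrate in lesional skin.

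The summed neutrophil markers had the same order of groups as the selectins, though not each marker did. Of 9 tested neutrophil markers, 8 were called higher under HDM in CTL mice, and the 10 markers summed to 80.6 and 81.9 CPM in baseline CTL, 77.0 and 39.5 CPM in baseline butyrate, 2722 and 1738 CPM in lesional CTL, and 818 and 383 in lesional butyrate skin. The lesional pairs did not overlap. Most of these sums in lesional skin came from S100a8 and S100a9, and the other 8 markers summed to 76.2 and 75.9 CPM, 70.7 and 27.8 CPM, 257 and 323 CPM, and 108 and 112 CPM in the same order of groups. Of these 8, Il1r2 made up most of the baseline sums (65.7 and 62.6 CPM in baseline CTL, 53.3 and 22.2 CPM in baseline butyrate). It went the other way under HDM, at 42.5 and 50.5 CPM in lesional CTL and 40.0 and 29.6 CPM in lesional butyrate skin. Ly6g, a defining neutrophil marker, was at or under 0.23 CPM in every library. Platelets hold P-selectin, and 5 of 9 platelet genes were tested, with 0 called. Their sums were 40.8 and 55.6 CPM in baseline CTL, 57.9 and 32.6 CPM in baseline butyrate, 76.0 and 74.1 CPM in lesional CTL and 38.6 and 60.3 in lesional butyrate skin. The platelet genes were uneven in level. Ppbp and Gp9 were at or under 0.65 CPM in every library, while Pf4 lay at 9.07 to 36.2 CPM. Itgb3 lay at 11.4 to 30.3 CPM and Itga2b at 4.77 to 11.8 CPM over the 8 libraries.

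Some macrophages express Lyve1, Pecam1 or Tek. Of 10 macrophage markers, Cd14 was the 1 called under HDM in CTL mice, and their sums were 729 to 1000 CPM in baseline CTL, 289 to 1240 CPM in baseline butyrate, 1270 to 1520 CPM in lesional CTL and 580 to 1110 in lesional butyrate skin. Among 11 lymphatic markers Pdpn, which keratinocytes and fibroblasts also make, was the 1 called higher (log2 fold change 2.03). Prox1, the defining factor of lymphatic endothelium, lay at 2.24 to 6.98 CPM over the 8 libraries. Mural cell (11), adipocyte (8), skeletal muscle (8), fibroblast (7) and keratinocyte (7) markers held 0 called genes in this comparison, with medians of -0.47, -0.53, -0.99, 0.29 and 0.058. Whether these cells contributed to the levels of the members was not tested.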

How the data were processed

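The authors aligned reads of TruSeq libraries with STAR 2.5.2 to GRCm38 through RNASik, used featureCounts for the counts per gene, and deposited the raw counts of protein-coding genes. The file is named as reverse-stranded counts. Groups were taken from the sample labels (SCFA read as butyrate, vehicle as CTL, atopic dermatitis as lesional skin). The design text counts 16 samples, of which 8 were analysed here.

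From the deposited counts, CPM were computed on TMM-scaled library sizes (factors 0.944 to 1.04), and edgeR 4.0.16 (R 4.3.3) fitted its robust quasi-likelihood model with 1 mean per group to all 8 mice after filterByExpr (minimum count 10), which kept 15163 of 22740 genes. Calls used the study's thresholds, an FDR (Benjamini-Hochberg over all tested genes) below 0.1 and a fold above 2. Intervals are 95% intervals on the moderated degrees of freedom, and fitted fold changes have a prior count of 0.125. Standard errors are the log2 fold change divided by the square root of the F statistic. Alternatives were DESeq2 1.42.0, limma-voom from limma 3.58.1, and further scalings, filters, thresholds and sets of mice. The test was checked on simulated data. The planted changes were larger than the fold of 2 that a call needs, and no simulated library was made to stand apart. At the spread of these mice it recovered 68.5% of 200 planted changes, with 23 wrong calls. At a smaller spread (dispersion 0.02) it recovered 97.5%, with 1 wrong call. A comparison without planted changes gave 0 calls in both. The depth puts 3 counts at 0.138 to 0.169 CPM, and the members' lowest count was 38, for Sele in baseline butyrate replicate 3. How much of the spread came from counting error was not tested.

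The members and all gene lists were chosen with earlier results of these data known, and no p adjusted over a list is given. The rule for names was all 10 members in every library, up to 4 called genes per pathway list by smallest p (the 2 of smallest p under HDM in CTL mice where none was called), and for each member the 2 genes of highest Pearson correlation. A called gene that the rule would name is not reported here. Two-sided tests were used throughout. Positions are from GENCODE vM21, and promoter windows from the RefSeq table for GRCm38.p6, which held 5 of the 10 members (Sele, Selp, Icam1, Kdr and Tek). 103 gene symbols occur more than once and were kept apart by identifier, none of them a member.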

Additional observations from a re-analysis of the deposited data

Results flagged for a closer look

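The ratio of Vcam1 to the 21 other endothelial genes moved in opposite directions in CTL and butyrate-treated mice. On the log2 scale, lesional minus baseline was 0.446 in CTL mice, with both lesional mice above both baseline mice, and -0.613 in butyrate-treated mice, with both lesional mice below both baseline mice. In the same ratio butyrate minus CTL was -0.612 in lesional and 0.447 in baseline skin, again with each pair on its own side. The difference between these effects was not tested for the ratio. Vcam1 was picked by this pattern after the ratios of all members had been compared in the same way. The share of all genes with such a pattern was not computed. How often pairs of mice separate in this way without any effect was not tested. For the level of Vcam1 itself the difference of the HDM effects was -0.78 on the log2 scale (standard error 0.72, FDR 0.840 by edgeR). The mice of lesional butyrate skin were at -2.26 and -1.52 on this ratio, a wider gap than in any other pair for this gene.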

How the results depend on the processing

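No paired analysis was made, since each library came from its own mouse and the labels link no mice between groups. The direction of Sele, Selp and Icam1 under HDM in both treatments and with butyrate in lesional skin held in every setting run, and what changed was the call.

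Without 1 mouse, edgeR called 0 to 1936 genes under HDM in CTL mice (0 to 2 members), 0 to 2990 under HDM in butyrate-treated mice (0 to 4), 0 to 191 with butyrate in lesional skin (0 to 2), 0 to 3777 in baseline skin (0 to 5) and 0 to 3275 for the difference of the HDM effects. DESeq2 called 1093 (2 members), 698 (2), 124 (1), 58 and 37 genes in these 5 comparisons. limma-voom called 578 genes (2 members) under HDM in CTL mice and 1 gene with butyrate in lesional skin. With only the 4 mice compared, edgeR called 1918 (2 members), 0 and 25 genes (1 member, Selp, in the last) in the first 3 comparisons. At an FDR below 0.05 without a limit on the fold it called 268 genes (1 member) and 17 genes in the first 2.

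Settings chosen after seeing the data left out baseline butyrate replicate 3. limma-voom then called 1925, 919 (1 member) and 216 genes (2), and DESeq2 called 1767, 1052 (1), 378 (2), 3 and 166 genes (2). With both baseline butyrate mice out, edgeR called 1860 genes (2 members) under HDM in CTL mice and 188 (2 members) with butyrate in lesional skin. With replicate 3 and 1 lesional mouse out, it called 5 to 638 genes in lesional skin (0 to 4 members). With lesional butyrate replicate 4 as the mouse out, Vcam1 and Tek were called too. A lone mouse was taken to vary like the other groups.

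Several values near 0 changed sign. Without 1 mouse, the difference of the HDM effects ranged from -0.40 to 0.62 for Cdh5, -0.35 to 0.27 for Icam1, -0.93 to 1.27 for Lyve1, -0.24 to 0.78 for Pecam1 and -0.47 to 0.75 for Vwf. HDM in butyrate-treated mice ranged from -0.031 to 0.98 for Cdh5, -1.61 to 0.58 for Lyve1, -0.60 to 0.36 for Tek, -0.66 to 0.74 for Vcam1 and -0.11 to 1.10 for Vwf, and in CTL mice from -0.11 to 0.13 for Kdr and -1.48 to 0.0021 for Lyve1. Butyrate in baseline skin ranged from -1.06 to 0.50 for Sele, -1.06 to 0.0079 for Selp, -0.45 to 0.36 for Tek and -0.73 to 0.52 for Vcam1, and in lesional skin from -0.35 to 0.28 for Kdr and -0.96 to 0.029 for Vwf (0.030 without baseline butyrate replicate 3 and lesional butyrate replicate 3).

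Other settings that turned a sign gave Vcam1 under HDM with butyrate 0.0071 (upper-quartile scaling) and 0.044 (limma-voom), Kdr with butyrate in lesional skin 0.00046 (no filter), and in baseline skin Vcam1 -0.12 and Tek -0.052 (limma-voom). Without baseline butyrate replicate 3, limma-voom gave -0.036 for Cdh5 and -0.073 for Vwf under HDM with butyrate, 0.53 for Sele and 0.015 for Selp in baseline skin, and for the difference of the HDM effects -0.26 for Pecam1, -0.39 for Cdh5, -0.42 for Vwf and -0.74 for Lyve1. DESeq2 gave 0.50 for Sele and 0.0072 for Selp in baseline skin, and -0.25, -0.34, -0.35 and -0.54 for those 4 differences. None of the values in this paragraph was called. The causes of these shifts were not tested, apart from the number of mice, which the settings change by construction.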
